A study of Arabidopsis thaliana with 12 samples.

Results

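The transcripts described here are those encoded in the mitochondrial and plastid genomes of Arabidopsis thaliana, measured in root tips. They were taken as every gene whose position in the deposited tables lies on the mitochondrial (Mt) or plastid (Pt) genome, whatever its level. That gave 279 of 33557 listed genes, 146 mitochondrial and 133 plastid, against 33278 nuclear genes. The study sequenced RNA from about 1 cm of root tip of seedlings that had grown for 8 days (22 °C, days of 16 h light, nights of 8 h) and then spent 24 h on 1/2 MS medium (Murashige and Skoog salts at reduced strength) with or without NaCl. There were 4 groups of 3 samples, namely line 6-6 on NaCl, 6-6 on MS, wild type (WT) on NaCl and WT on MS. The labels do not say what 6-6 is or in which background it was made, and the sources used here give no NaCl concentration. ITPK4, the inositol phosphate kinase gene of the series title, stood at 2.95 FPKM in 6-6 MS and 24.9 FPKM in WT MS in the authors' deposited table (log2 ratio -3.08), and at 2.75 FPKM in 6-6 NaCl and 27.7 FPKM in WT NaCl (log2 ratio -3.33).

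Both organelles keep a small genome of their own. The mitochondrial genome encodes core subunits of the respiratory chain and ATP synthase, ribosomal RNAs and some ribosomal proteins, and phage-type RNA polymerases made in the nucleus transcribe it. The plastid genome encodes core subunits of the photosystems, the cytochrome b6f complex, the NDH complex and ATP synthase, the large subunit of Rubisco, and the core of a bacterial-type RNA polymerase that works with sigma factors made in the nucleus. Root plastids are mostly not green. Most organelle RNAs carry no stable poly(A) tail, and short tails added to them mark them for decay. The labels name total RNA as the material, the design text speaks of mRNA, and the sources used here do not say how the libraries selected RNA.

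Each deposited table compares 2 groups and gives every gene 1 FPKM value for each group. FPKM counts fragments per length of transcript and per size of library. Values of single samples were not analysed here, so the levels carry no SD. A gene was called where the q-value in the authors' deposited table was below 0.05. The labels do not say if the 3 samples of each group were separate cultures, so those tests may measure only technical spread. Of the 146 mitochondrial genes 42 were tested in at least 1 table and 27 in all 4, and of the 133 plastid genes 53 and 41. All 21 mitochondrial and all 37 plastid tRNA genes were listed at 0 in every group. With these, 73 mitochondrial and 60 plastid genes were at 0 throughout. All 8 root markers looked at were present in every group, from 4.73 to 314 FPKM in 6-6 MS and from 5.51 to 333 FPKM in WT MS (PLT2 the lowest, the Casparian strip gene AT2G36100 the highest), and none of them was called between these groups. The 8 nuclear markers of green tissue summed to 45.9 FPKM in 6-6 MS and 59.6 FPKM in WT MS, with 2 of them lower and none higher in 6-6 MS (RBCS1A at 6.59 and 9.82 FPKM, LHCB2.1 at 1.498 and 2.93 FPKM).

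On MS, most functional classes with tested organelle genes held genes called higher in 6-6 than in WT. Mitochondrial genes for maturation of c-type cytochromes and plastid ribosomal protein genes were tested and held no call. Among 40 tested mitochondrial genes 20 rose in 6-6 MS and none fell, and among 51 tested plastid genes 23 rose and none fell. Of all 19465 genes tested there, 3.02% were called, 1.13% higher and 1.89% lower. The median log2 ratio of 6-6 MS over WT MS was 1.53 for the mitochondrial genes and 1.19 for the plastid genes, against -0.07 for nuclear genes. All 40 mitochondrial ratios lay above 0, from 0.27 to 3.99, as did 47 of the 50 plastid ratios that could be formed. Summed over every listed member, mitochondrial genes amounted to 3441 FPKM in 6-6 MS and 1133 FPKM in WT MS, and plastid genes to 270.0 and 119.1 FPKM. As a share of the FPKM of all genes, mitochondrial transcripts made up 0.400% in 6-6 MS and 0.127% in WT MS, and plastid transcripts 0.0314% in 6-6 MS and 0.0134% in WT MS. With calls made from the authors' test statistic, taken as a normal deviate, 12 mitochondrial and 13 plastid genes were higher and none lower. In whole root tips, more organelle RNA per cell and more cells rich in organelles cannot be told apart. The part that RNA without poly(A) tails in the 6-6 MS libraries had in these values was not tested.

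**Figure D1:**
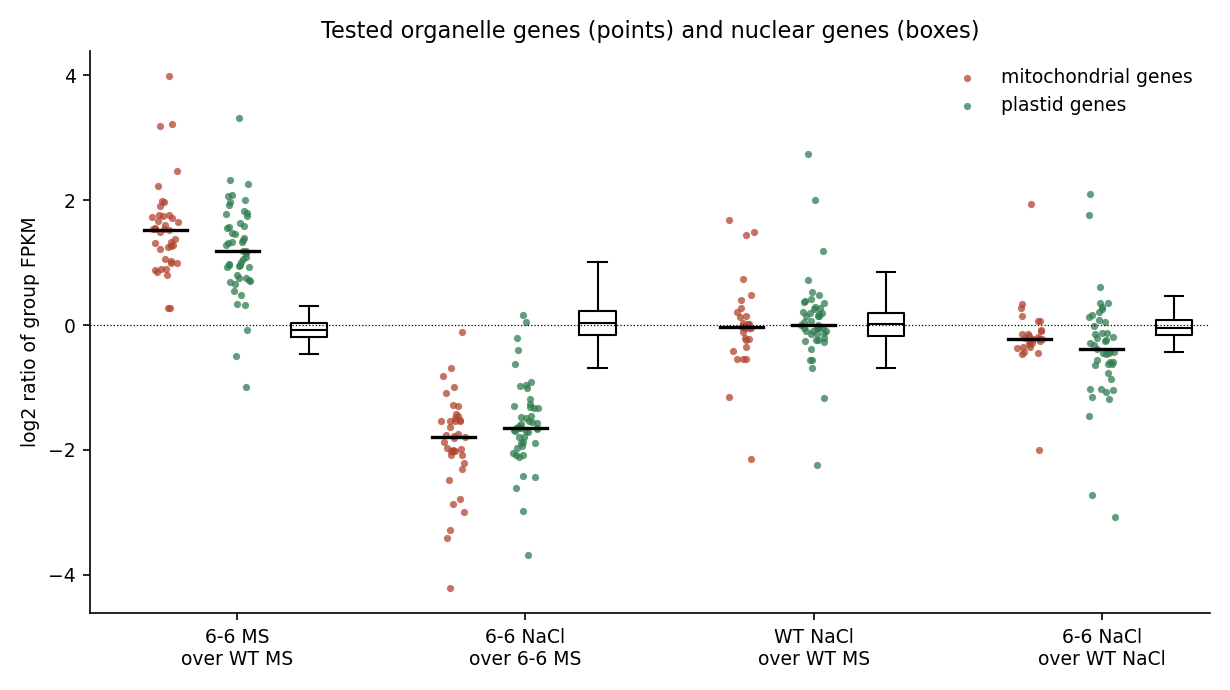
Log2 ratio of group FPKM (vertical axis) for each tested mitochondrial gene (red points) and plastid gene (green points) in the 4 comparisons, with black bars at the medians. Boxes give the nuclear genes, with the median, the quartiles and whiskers at the 5th and 95th percentiles. Most points of both genomes lie above the nuclear box for 6-6 MS over WT MS (medians 1.53 and 1.19) and below it for 6-6 NaCl over 6-6 MS (medians -1.79 and -1.64), and they straddle 0 for WT NaCl over WT MS.

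The 2 large mitochondrial ribosomal RNAs carried most of the mitochondrial signal. RRN18, the RNA of the small ribosomal subunit, was at 1673 FPKM in 6-6 MS and 527 FPKM in WT MS, a log2 ratio of 1.67. RRN26, of the large subunit, was at 1292 FPKM in 6-6 MS and 439 FPKM in WT MS, a log2 ratio of 1.56. Their q-value in the authors' deposited table was 0.00396, the smallest it lists, and 13 of the 20 called mitochondrial genes shared it. With the statistic RRN18 was still called and RRN26 was not. Ribosomal RNA was 86.2% of the mitochondrial FPKM in 6-6 MS and 85.2% in WT MS. The small RRN5 was listed at 0 in every group. Without the ribosomal RNAs the mitochondrial sum was still 476 FPKM in 6-6 MS and 167 FPKM in WT MS.

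Complex I, the NADH dehydrogenase that opens the respiratory chain, has 14 mitochondrial entries, of which 10 were tested and 4 rose in 6-6 MS (median log2 ratio 1.43). The entry of NAD5 with the highest level (ATMG00060) stood at 32.2 FPKM in 6-6 MS and 13.2 FPKM in WT MS. A second NAD5 entry (ATMG00513) was at 8.33 and 2.47 FPKM in the same order. NAD5, NAD1 and NAD2 messages are spliced together from separate transcripts, so each has several entries. NAD7, a subunit of the matrix arm, rose to 11.2 FPKM in 6-6 MS, against 3.85 FPKM in WT MS. For NAD2 (ATMG01320) the values were 8.86 FPKM in 6-6 MS and 1.90 FPKM in WT MS, a log2 ratio of 2.22, one of the 3 highest among organelle genes with a mean of at least 5 FPKM. It shares its position with ORF107H, so its value is uncertain. NAD4L had the highest ratio of all, 3.99, from 7.02 FPKM in 6-6 MS and 0.443 FPKM in WT MS, and was not called. NAD9, at 15.001 FPKM in 6-6 MS and 8.58 FPKM in WT MS, did not pass (q 0.0895 in the authors' deposited table), and neither did NAD1 at 8.01 and 4.31 FPKM, which shares its position with MATR.

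The 3 subunits of cytochrome c oxidase, complex IV, were tested and 2 rose. COX1, its catalytic subunit, was at 26.8 FPKM in 6-6 MS and 8.14 FPKM in WT MS (log2 ratio 1.72), and COX2, which takes electrons from cytochrome c, at 10.7 and 5.93 FPKM (0.85). COX3 was low, at 0.706 FPKM in 6-6 MS and 0.225 FPKM in WT MS, and was not called. Of the mitochondrial ATP synthase, 3 of 4 tested genes rose. These were ORF25, which encodes a subunit of the stalk (19.6 FPKM in 6-6 MS, 8.48 FPKM in WT MS), ATP6-2 of the proton channel (5.81 and 2.01 FPKM) and the catalytic-head subunit ATP1 (3.86 and 1.90 FPKM). ATP9, the ring subunit, was at 3.84 FPKM in 6-6 MS and 3.18 FPKM in WT MS, with a log2 ratio of 0.27, the lowest of the 40 tested mitochondrial genes. With the statistic COX1 and ATP6-2 were still called, but COX2, ORF25 and ATP1 were not.

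Among genes for expression of the mitochondrial genome itself, 3 of 4 tested ribosomal protein genes and the intron maturase MATR rose. RPL16 was at 25.02 FPKM in 6-6 MS and 10.1 FPKM in WT MS, and the ribosomal protein gene ATMG00090, at the same position, at 15.5 and 5.34 FPKM, so reads of either could belong to the other. RPL2 had 3.53 FPKM in 6-6 MS and 1.49 FPKM in WT MS, and MATR 1.25 and 0.318 FPKM. RPSL2, at 1.19 FPKM in 6-6 MS and 0.455 FPKM in WT MS, was not called. The genes for maturation of c-type cytochromes were low: of 5 listed, 2 were tested and none was called (CCB206 at 2.01 FPKM in 6-6 MS and 0.661 FPKM in WT MS, CCB382 at 0.871 and 0.466 FPKM). Of 84 other open reading frames 14 were tested and 5 rose. ORF107A was the third most abundant mitochondrial entry, with 174 FPKM in 6-6 MS and 51.1 FPKM in WT MS. ORF106F had 21.6 FPKM in 6-6 MS and 2.33 FPKM in WT MS, a log2 ratio of 3.22 (q 0.0480 in the authors' deposited table). ORF294 had 9.61 and 2.44 FPKM. ORF149 differed least, with 7.61 FPKM in 6-6 MS and 6.28 FPKM in WT MS, and was not called. Of the called genes named here, RPL16, RPL2 and ORF106F were not called with the statistic.

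**Figure D2:**
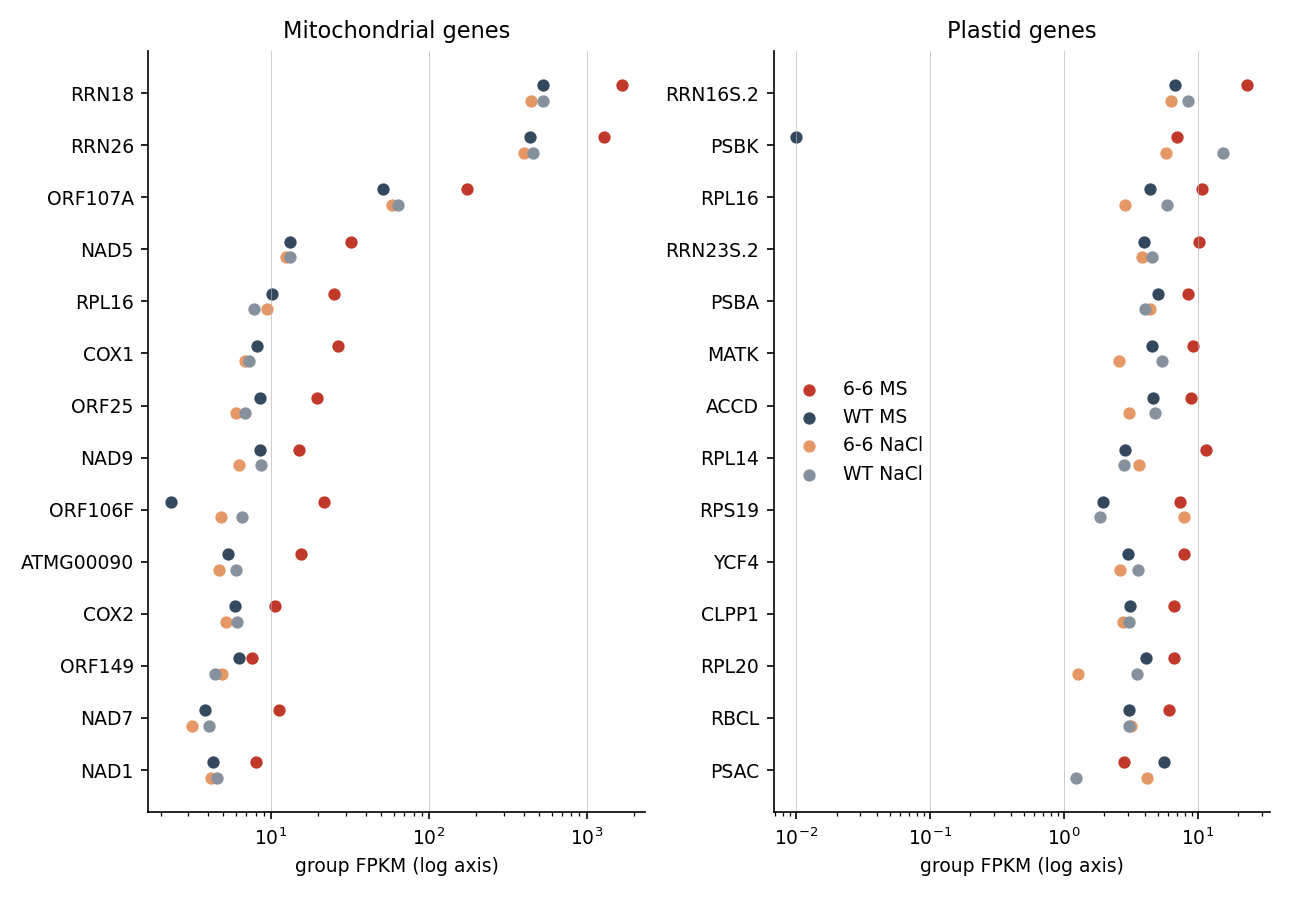
Group FPKM (horizontal, log axis) of the 14 most abundant named mitochondrial genes (left) and plastid genes (right). For each gene the upper pair of points is 6-6 MS (red) and WT MS (dark) from their table, the lower pair 6-6 NaCl (orange) and WT NaCl (grey) from theirs, and a value of 0 is drawn at 0.01. The 6-6 MS point lies to the right of the WT MS point for all of these genes except PSAC, while the lower pairs mostly lie close together.

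Plastid ribosomal RNA showed the largest class median in the plastid genome. All 4 tested entries rose, with a median log2 ratio of 1.77. The 16S RNA of the small subunit has 2 entries in the inverted repeat, a stretch that the plastid genome carries in 2 copies. RRN16S.2 was at 23.3 FPKM in 6-6 MS and 6.77 FPKM in WT MS, and RRN16S.1 at 6.15 and 1.23 FPKM. The 23S entries behaved alike, with RRN23S.2 at 10.2 FPKM in 6-6 MS and 3.96 FPKM in WT MS and RRN23S.1 at 3.68 and 1.09 FPKM. The 4.5S and 5S entries were listed at 0. The start of the 16S RNA is printed at both places, because the entries differ in FPKM although their 1491 bases are identical. The sequences are from the plastid genome of RefSeq's TAIR10.1, at TAIR10 positions Pt:137578-137637 (minus strand) and Pt:101012-101071 (plus strand), with no base singled out.
RRN16S.2: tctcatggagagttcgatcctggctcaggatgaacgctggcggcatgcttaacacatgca
RRN16S.1: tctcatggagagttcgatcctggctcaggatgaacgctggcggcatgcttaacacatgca
The 60 bases occur 2 times in the plastid genome. The sources used here do not say how reads were divided between identical places, so the pair is better read together than apart.

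Plastid genes for photosynthesis were low in root tips, and each complex had genes that rose. In photosystem II 3 of 4 tested genes rose, in photosystem I 3 of 5, in the ATP synthase 3 of 6, in the NDH complex 2 of 6 and in cytochrome b6f 1 of 3. PSBA, the D1 reaction-centre protein of photosystem II, was at 8.47 FPKM in 6-6 MS and 5.05 FPKM in WT MS, a log2 ratio of 0.75. PSBB, a core antenna protein, was at 3.69 FPKM in 6-6 MS and 1.24 FPKM in WT MS. The photosystem I reaction-centre genes PSAA and PSAB were at 5.35 and 5.53 FPKM in 6-6 MS, against 1.93 and 2.65 FPKM in WT MS. RBCL, the large subunit of Rubisco, had 6.05 FPKM in 6-6 MS and 3.06 FPKM in WT MS (log2 ratio 0.98). In the ATP synthase, ATPB of the catalytic head was at 5.94 FPKM in 6-6 MS and 1.90 FPKM in WT MS, with ATPE at the same position, ATPA at 4.31 and 1.70 FPKM, and ATPI at 3.86 and 1.08 FPKM. PETA, cytochrome f, had 4.70 FPKM in 6-6 MS and 2.44 FPKM in WT MS. Calls made from the statistic instead included PSBB, PSAA, PSAB and ATPB, but not PSBA, RBCL, ATPA, ATPI or PETA. PETA was the only called gene of cytochrome b6f. The 3 ratios below 0 were those of PSAC, an iron-sulfur protein of photosystem I (2.80 FPKM in 6-6 MS, 5.58 FPKM in WT MS), the ring subunit ATPH (3.03 and 4.25 FPKM) and YCF3, an assembly factor of photosystem I (1.20 and 1.27 FPKM), and none of them was called.

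Plastid genes with no part in photosynthesis rose too. Of the 4 core subunits of the plastid-encoded RNA polymerase 3 rose: RPOC2 to 3.55 FPKM in 6-6 MS, against 1.20 FPKM in WT MS, RPOC1 to 2.01 against 0.897 FPKM, and RPOB to 2.16 against 1.37 FPKM. RPOA, at 2.81 FPKM in 6-6 MS and 1.44 FPKM in WT MS, did not pass. ACCD, a subunit of the enzyme that opens fatty acid synthesis, was at 8.88 FPKM in 6-6 MS and 4.57 FPKM in WT MS, and the maturase MATK at 9.16 and 4.54 FPKM. CLPP1, a protease subunit, was at 6.62 and 3.11 FPKM and was not called. With the statistic RPOC2 and MATK were still called, but RPOC1, RPOB and ACCD were not. None of the 12 tested plastid ribosomal protein genes was called in the authors' deposited table, although all 11 finite ratios lay above 0 (median 1.29). RPL14, with the highest level of them in 6-6 MS, was at 11.4 FPKM in 6-6 MS and 2.82 FPKM in WT MS with a q of 0.0691 in the authors' deposited table. RPS19 was at 7.34 and 1.94 FPKM, with a q of 0.580 there. RPL20 (6.57 FPKM in 6-6 MS and 4.06 FPKM in WT MS) had the lowest ratio, 0.69, among plastid genes with a mean of at least 5 FPKM in these groups.

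**Figure D3:**
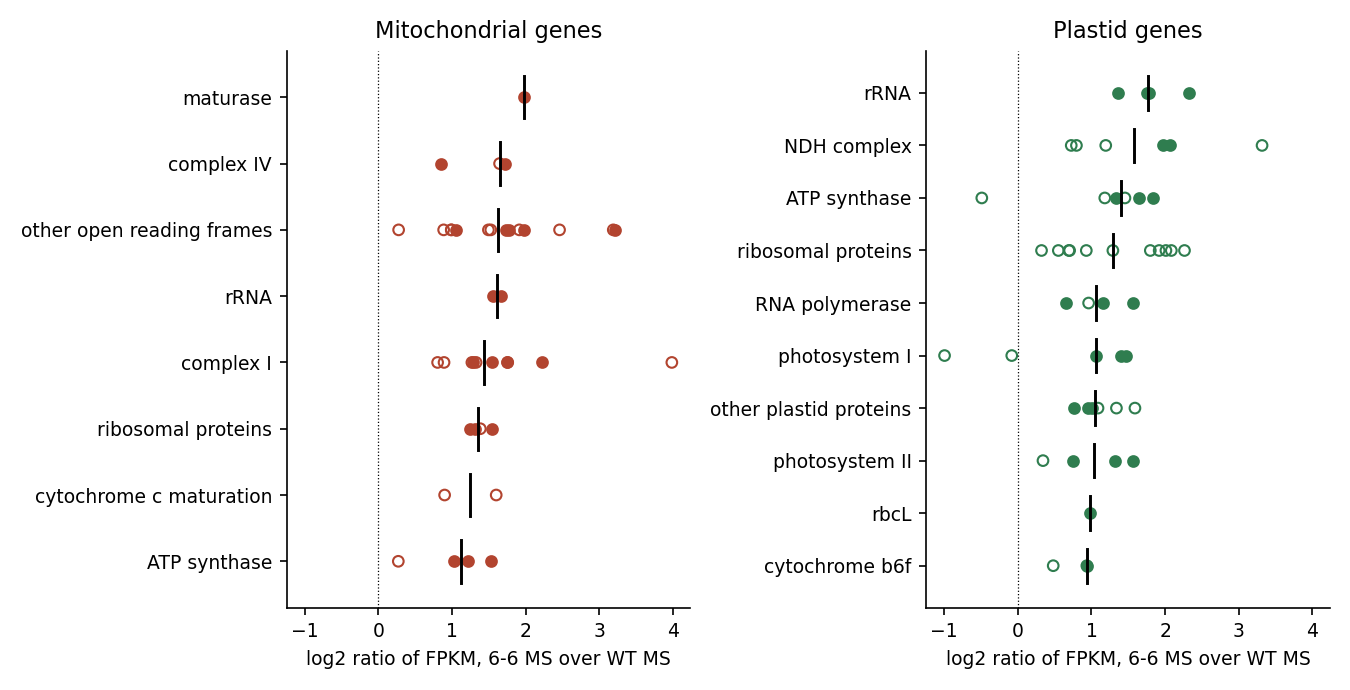
Log2 ratio of FPKM, 6-6 MS over WT MS (horizontal), for each tested gene by functional class, mitochondrial on the left and plastid on the right. Filled points were called at a q-value below 0.05, open points were not, and black bars are class medians. Class medians run from 1.12 (ATP synthase) to 1.98 (maturase, 1 gene) in mitochondria and from 0.94 (cytochrome b6f) to 1.77 (rRNA) in plastids.

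Bacterial-type promoter cores were looked for in the 250 bases before each plastid gene, since members of one genome moved together. The motif searched was TTGACA, then 15 to 19 bases, then TANNNT, on the gene's own strand only. It was present in 7 of 131 upstream windows (5.34%), where a gene such as rps12 has several windows. The matches are not all separate, since trnY and trnE share a core and both ycf1 entries carry the same sequence. The cores before psbA and before trnK, whose intron holds matK, are printed because PSBA and MATK are among the most abundant plastid entries. TRNK itself was listed at 0 in every group. Both cores lie on the minus strand at Pt:1530-1559 and Pt:4458-4486 (TAIR10 positions, RefSeq sequence), with the motif's fixed boxes in capitals.
psbA: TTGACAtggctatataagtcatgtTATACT
trnK: TTGACAacagtgtatggaccaaaTATAAT
PSBA and MATK had log2 ratios of 0.75 and 1.01 on MS, both below the plastid median of 1.19. YCF1.2, which also has the motif upstream, was at 2.88 FPKM in 6-6 MS and 1.70 FPKM in WT MS (0.76, called). A match is only a description of these letters, and no statement about binding follows from it.

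In line 6-6, nearly every class with tested organelle genes held genes called lower on NaCl. In 6-6 NaCl against 6-6 MS, 25 of 40 tested mitochondrial genes and 35 of 50 tested plastid genes fell and none rose. With the statistic 23 mitochondrial and 26 plastid genes were lower and none higher. Of all 19705 genes tested there, 24.1% were called, 13.7% higher and 10.4% lower. Median log2 ratios were -1.79 for mitochondrial and -1.64 for plastid genes, against 0.03 for nuclear genes. The mitochondrial sum was 975 FPKM in 6-6 NaCl and 3483 FPKM in 6-6 MS, and the plastid sum 104.6 and 273.3 FPKM. This comparison and the one on MS share the 6-6 MS group, so they are not independent of each other. The 8 green tissue markers ran the other way, summing to 108 FPKM in 6-6 NaCl and 46.5 FPKM in 6-6 MS, with 5 higher and none lower. Of the 8 root markers 1 was higher, AT1G12560 at 160 FPKM in 6-6 NaCl and 102 FPKM in 6-6 MS. Another 2 were lower, among them AT2G36100 at 212 FPKM in 6-6 NaCl and 318 FPKM in 6-6 MS. The part of these shifts in the organelle result was not tested.

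Each mitochondrial class with more than 2 tested genes had called members on NaCl in 6-6. RRN18 fell to 433 FPKM in 6-6 NaCl, against 1694 FPKM in 6-6 MS, and RRN26 to 390 against 1307 FPKM. COX1 fell to 6.74 FPKM in 6-6 NaCl, against 27.1 FPKM in 6-6 MS (log2 ratio -2.01), and COX2 and COX3 also fell. In complex I 7 of 10 tested genes fell. The strongest with a mean of at least 5 FPKM were NAD2 (ATMG01320, -2.08, shared position) and NAD5 (ATMG00513, -2.02), beside ORF106F (-2.21, at 4.73 FPKM in 6-6 NaCl and 21.9 FPKM in 6-6 MS). NAD1 (4.06 FPKM in 6-6 NaCl, 8.11 FPKM in 6-6 MS) and ORF149 (4.79 and 7.71 FPKM) had the smallest shifts among mitochondrial genes with a mean of at least 5 FPKM and were not called. In plastids all 4 tested rRNA entries and all 4 polymerase genes fell, with RRN16S.2 at 6.13 FPKM in 6-6 NaCl and 23.6 FPKM in 6-6 MS and RPOC2 at 0.846 and 3.59 FPKM. The NDH genes fell in 5 of 6, among them NDHC, listed at 0 in 6-6 NaCl and at 2.78 FPKM in 6-6 MS. Plastid ribosomal protein genes fell in 5 of 13, with RPL16 at 2.77 and 10.9 FPKM. RPS19 had the highest ratio among organelle genes with a mean of at least 5 FPKM, at 7.71 FPKM in 6-6 NaCl and 7.44 FPKM in 6-6 MS (0.05, not called).

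In WT the salt treatment gave no call. None of 30 tested mitochondrial and none of 47 tested plastid genes was called in WT NaCl against WT MS by the authors' q-value, where 21.8% of all 19798 tested genes were called (11.3% higher and 10.5% lower). At an unadjusted p below 0.05 the counts were 0 mitochondrial and 4 plastid genes, and with the authors' test statistic read as a normal deviate they were 1 mitochondrial gene (ORF107B, higher) and 2 plastid genes (ATPH and PSAC, lower). These genes were named after their values were seen. Median log2 ratios were -0.03 for mitochondrial and 0.00 for plastid genes. RRN18 was at 521 FPKM in WT NaCl and 538 FPKM in WT MS, COX1 at 7.20 and 8.33 FPKM, NAD7 at 3.99 and 3.93 FPKM, RBCL at 3.03 and 3.13 FPKM and RRN16S.2 at 8.26 and 6.92 FPKM. The mitochondrial sums were 1149 FPKM in WT NaCl and 1158 FPKM in WT MS, the plastid sums 143.6 and 121.7 FPKM. Among the 8 green tissue markers 5 rose and 1 fell in WT NaCl against WT MS. Of the 8 root markers 1 rose, AT1G12560 at 158 FPKM in WT NaCl and 110 FPKM in WT MS. Another 2 fell, among them AT2G36100 at 259 and 340.3 FPKM in the same order. Whether the response to salt differed between the lines was not tested, since the authors' tables hold no such comparison.

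On NaCl 4 organelle genes were called between the lines, all of them plastid genes. None of 29 tested mitochondrial genes was called in 6-6 NaCl against WT NaCl by the authors' q-value (6 at an unadjusted p below 0.05, 5 of them lower, and 2 with the statistic, both lower). Of 46 tested plastid genes 4 fell and none rose, where 6.71% of all 19772 tested genes were called, 3.04% higher and 3.67% lower. At an unadjusted p below 0.05 there were 14 plastid genes, all lower in 6-6 NaCl (30.4% of those tested, against 18.4% of nuclear genes in either direction). MATK was at 2.56 FPKM in 6-6 NaCl and 5.36 FPKM in WT NaCl (log2 ratio -1.07, q 0.00186 in the authors' deposited table). ACCD was at 3.07 FPKM in 6-6 NaCl and 4.74 FPKM in WT NaCl (-0.62, q 0.0280 in that deposited table), and RRN16S.2 at 6.27 and 8.37 FPKM (-0.42, q 0.0449 there). PSBE, a small subunit of photosystem II, was listed at 0 in 6-6 NaCl and at 2.64 FPKM in WT NaCl. Calls made from the statistic instead did not include MATK, ACCD or RRN16S.2. PSBE was kept, but with 0 in 1 group its statistic has no bound, so that is no second check. Of the 29 mitochondrial genes tested there, 27 had a finite ratio. Median log2 ratios were -0.22 for mitochondrial and -0.38 for plastid genes, against -0.05 for nuclear genes. RRN18 was at 443 FPKM in 6-6 NaCl and 528 FPKM in WT NaCl and COX1 at 6.89 and 7.29 FPKM. Mitochondrial transcripts made up 0.113% of all FPKM in 6-6 NaCl, 0.125% in WT NaCl and, as given above, 0.127% in WT MS, so that the share of 0.400% in 6-6 MS stood apart from the other 3 groups. Plastid transcripts made up 0.0122% in 6-6 NaCl and 0.0157% in WT NaCl.

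The order of levels was largely kept among mitochondrial genes, and less so among plastid genes. Between 6-6 MS and WT MS, Spearman's rank correlation of FPKM across genes was 0.92 over 40 mitochondrial and 0.75 over 50 plastid genes. In the other comparisons it was 0.93 to 0.95 for mitochondrial genes. For plastid genes it was 0.82 between 6-6 NaCl and 6-6 MS, 0.68 between WT NaCl and WT MS, and 0.59 between 6-6 NaCl and WT NaCl. These are correlations across genes, which are not independent replicates. Of genes with a mean of at least 5 FPKM in 6-6 MS and WT MS, 14 of 17 mitochondrial and 6 of 10 plastid genes were called between these groups. Of those below that level 6 of 23 and 17 of 40 were called. Of all genes tested there 3.02% were called. The difference between genes above and below 5 FPKM was not tested.

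Mitochondrial genes with sequence copies elsewhere were mostly listed at low levels. Chromosome 2 carries an insertion of mitochondrial DNA at chr2:3250465-3509765 (TAIR10), in 7 aligned blocks that match the RefSeq mitochondrial genome at 99.4% to 99.9% identity and cover 71.4% of it. Of 146 mitochondrial entries 29 could be matched by name to that genome, whose sequence differs from the one in the files, so positions on it are not given. Among protein genes with another exact copy of at least 90% of their words of 50 bases, 11 of 18 were tested in no table, and the median of their mean level was 0.161 FPKM. Of the 7 protein genes with under 50% of such words none was left untested, and their median was 9.66 FPKM. COX1, NAD9, ORF25 and RRN26 held no repeated word, and RRN18 held 0.37%. In plastids 18 of 22 genes of the inverted repeat were tested in no table, with a median of 0.0981 FPKM, against 25 of 74 genes with under 50% repeated words, whose median was 1.65 FPKM.

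**Figure D4:**
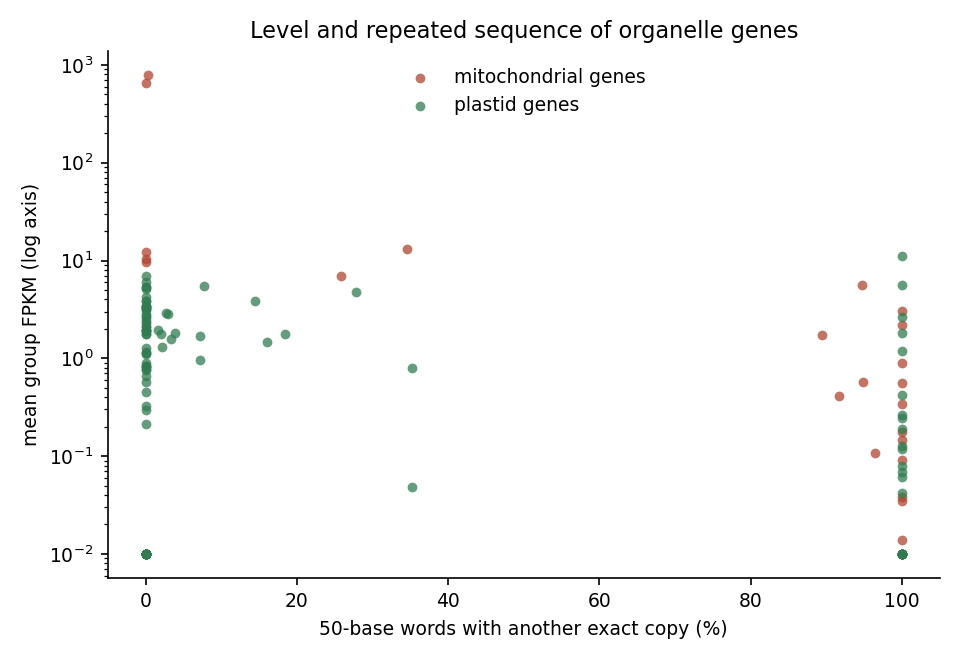
Mean of the 8 group FPKM values (vertical, log axis, 0 drawn at 0.01) against the percentage of a gene's 50-base words that have another exact copy in the nuclear or organelle genomes. Red points are mitochondrial and green points plastid genes other than tRNA genes. Genes at 100% include most of those under 1 FPKM in mitochondria, while the plastid genes at 0% also spread down to 0.

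Apocytochrome b, the core of complex III, shows this most plainly. COB itself was listed at 0.0557 FPKM in 6-6 MS and at 0 in WT MS. Its copy on chromosome 2, AT2G07727, was at 3.03 FPKM in 6-6 MS and 0.964 FPKM in WT MS and rose (q 0.00396 in the authors' deposited table). All 1467 bases of AT2G07727 (chr2:3450578-3452044, TAIR10) occur unaltered in the RefSeq mitochondrial genome, so by these sequences a read from one place would also match the other. The start of its open reading frame, at chr2:3450863-3450922 on the plus strand, is printed for that reason, with the start codon in capitals.
AT2G07727: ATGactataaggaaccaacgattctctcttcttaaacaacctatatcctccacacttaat

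Other copies were called in the same directions. Of 122 nuclear genes inside the insertion 16 were tested on MS, and 8 rose in 6-6 MS and none fell, with a median log2 ratio of 1.58. Of all genes tested there 1.13% were called higher, and with the statistic 3 of the 16 were called. In 6-6 NaCl against 6-6 MS 9 of 15 fell and none rose (median -1.89). Of all genes tested there 10.4% were called lower, and with the statistic 8 of the 15 were called. None was called in WT NaCl against WT MS (10 tested, 2 at an unadjusted p below 0.05, 1 with the statistic) or in 6-6 NaCl against WT NaCl (8 tested, 2 and 0). In those comparisons 21.8% and 6.71% of all tested genes were called. AT2G07698, the copy of ATP1, was at 10.7 FPKM in 6-6 MS and 3.78 FPKM in WT MS, above the mitochondrial ATP1 entry. AT2G07687, the copy of COX3, was at 3.80 and 1.11 FPKM. NAD7 went the other way, with 11.2 FPKM in 6-6 MS at its mitochondrial entry and 0.427 FPKM at AT2G07708. For these genes the values of the mitochondrial and chromosome 2 entries are uncertain apart, and whether any read came from chromosome 2 cannot be told from these tables.

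**Figure D5:**
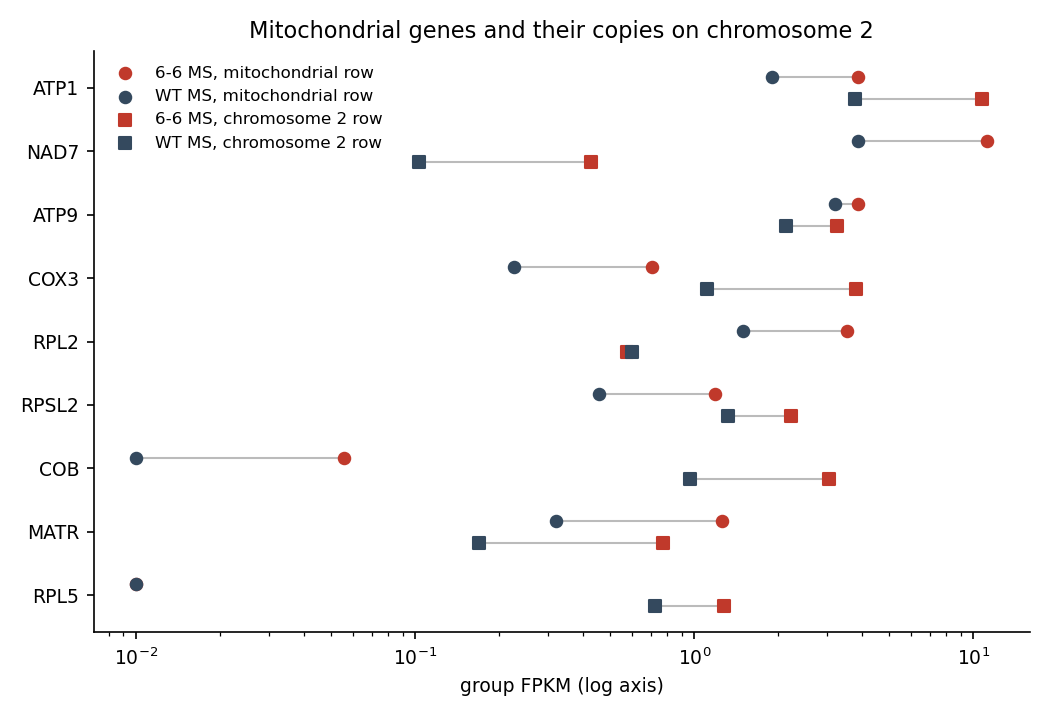
Group FPKM (horizontal, log axis, 0 drawn at 0.01) of mitochondrial genes (circles, upper of each pair) and of their copies on chromosome 2 (squares, lower), in 6-6 MS (red) and WT MS (dark). Pairs with at least 1 tested entry are shown. For COB, COX3 and ATP1 the chromosome 2 entry is the higher of the pair, for NAD7 the mitochondrial one, and both RPL5 points of the mitochondrial entry are at 0.

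Nuclear genes that work with the organelle genomes gave 1 call on MS, where 3.02% of all tested genes were called, so the count is near that share. Of 32 tested nuclear subunits of the respiratory chain none was called in 6-6 MS against WT MS by the authors' q-value (1 at an unadjusted p below 0.05, 0 with the statistic), and their median log2 ratio was -0.05. AT5G13450, a subunit of mitochondrial ATP synthase, was at 552 FPKM in 6-6 MS and 656 FPKM in WT MS. Of 8 tested polymerases and sigma factors, which transcribe the organelle genomes, none was called on MS (0 at an unadjusted p below 0.05, 0 with the statistic, median 0.01), and RPOTm (AT1G68990, listed as MGP3), the mitochondrial polymerase, was at 10.6 FPKM in 6-6 MS and 9.37 FPKM in WT MS. The 12 proteins of the plastid polymerase complex gave no call on MS either (0 and 0, median 0.02), nor did 4 genes of organelle RNA decay (1 and 0, median 0.14), among them the mitochondrial polynucleotide phosphorylase AT5G14580 at 9.71 FPKM in 6-6 MS and 8.27 FPKM in WT MS. In the mitochondrial stress response 1 of 8 rose on MS, the dicarboxylate carrier DIC2 at 6.66 FPKM in 6-6 MS and 4.45 FPKM in WT MS, while AOX1A, the alternative oxidase, at 73.8 and 62.3 FPKM, was not called. With the statistic none of these 8 genes was called on MS.

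Salt changed some of these nuclear genes, against 24.1% of all tested genes called in 6-6 NaCl against 6-6 MS (13.7% higher) and 21.8% in WT NaCl against WT MS (11.3% higher). Whether the lists differ from those shares was not tested. SIG5, a sigma factor, fell to 8.08 FPKM in 6-6 NaCl, against 19.7 FPKM in 6-6 MS, and to 10.8 FPKM in WT NaCl, against 19.5 FPKM in WT MS. It was also lower in 6-6 NaCl than in WT NaCl (8.26 and 10.9 FPKM, q 0.0125 in the authors' deposited table). With the statistic no polymerase or sigma factor was called between the lines on NaCl. AOX1A fell in both lines, to 46.9 FPKM in 6-6 NaCl, against 74.7 FPKM in 6-6 MS, and to 46.3 FPKM in WT NaCl, against 63.6 FPKM in WT MS. Of the plastid polymerase complex 4 of 12 rose in 6-6 NaCl against 6-6 MS and 1 of 12 in WT NaCl against WT MS, with no call by the statistic in either. Of the respiratory chain 0 of 32 were called in 6-6 NaCl against 6-6 MS (3 at an unadjusted p below 0.05, 0 with the statistic). In WT NaCl against WT MS 2 of 32 rose, and none was called with the statistic. Of the mitochondrial stress response 2 of 8 rose and 1 fell in 6-6 NaCl against 6-6 MS, and 4 rose and 1 fell in WT NaCl against WT MS. With the statistic 2 of 8 were called in the first of these comparisons and 1 of 8 in the second. In both, BCS1, a protein of the outer mitochondrial membrane, had the largest rise, to 9.24 FPKM in 6-6 NaCl, against 2.98 FPKM in 6-6 MS, and to 6.97 FPKM in WT NaCl, against 2.93 FPKM in WT MS. The polymerase AT5G15700 (RPOTmp) and the polynucleotide phosphorylase AT5G14580 rose in WT NaCl, to 4.83 FPKM against 3.84 FPKM in WT MS and to 10.4 FPKM against 8.45 FPKM in WT MS. With the statistic 1 of the polymerases and sigma factors and no gene of organelle RNA decay was called in WT NaCl against WT MS.

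Nuclear RNAs that carry no poly(A) tail were set beside the organelle RNAs. All 631 nuclear tRNA genes were listed at 0 in every group. Of 71 small nucleolar RNA genes 2 were tested on MS, U3B at 0.209 FPKM in 6-6 MS and 1.05 FPKM in WT MS and U3D at 3.11 and 6.24 FPKM, and none was called. Of 13 small nuclear RNA genes none was tested on MS, although the U1 gene AT1G08115 was listed at 29.0 FPKM in 6-6 MS and at 0 in WT MS, and at 97.8 FPKM in 6-6 NaCl and at 0 in WT NaCl. The nuclear 18S rRNA entry AT2G01010 carried the status HIDATA, which that table layout uses for too many fragments to process, in both tables with 6-6 MS. There it was listed at 0 for 6-6 MS and at 22.95 FPKM for WT MS. Between the lines on NaCl it was at 15.02 FPKM in 6-6 NaCl and 22.6 FPKM in WT NaCl and was called lower. Another nuclear rRNA entry, AT3G41768, carried the status HIDATA in every comparison, also those without 6-6 MS, and was listed at 0 in each group. The rRNA entry AT3G41979 was at 141 FPKM in 6-6 MS and 85.9 FPKM in WT MS (log2 ratio 0.71) and at 27.0 FPKM in 6-6 NaCl and 143 FPKM in 6-6 MS (-2.40), with no call in either. The other tested RNAs of these kinds went up in 6-6 NaCl against 6-6 MS. There the 2 tested small nucleolar RNA genes had log2 ratios of 0.19 and 1.84. The 2 tested small nuclear RNA genes had 0.84 and 1.70, and none of them was called. The part of RNA without poly(A) tails in the organelle result was not tested.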

How the data were processed

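RNA of 12 root tip samples was sequenced (4 groups of 3). Per the submitters' processing notes, HISAT2, HTSeq, edgeR and build TAIR10 were used, and the sources used here give neither their roles nor versions. The 4 tables have the layout of Cuffdiff's gene output per the file headers. The FPKM values were made by the authors, 1 per group. The signed test statistic (a score), the p-values and the q-values are also as deposited by the authors.

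Here log2 ratios were taken as the FPKM of the group named first over that of the second, within 1 table, without a pseudocount, and only where both were above 0. The median ratio of the same group in both its tables was 0.978 to 0.988, alike for organelle and nuclear genes. Genes tested by the authors were called at a q-value below 0.05, which is Benjamini-Hochberg adjusted over all tested genes. The smallest p-value listed is 5e-05. The depth of the libraries is unknown. The members and lists were chosen with earlier results of these data known. The genes named are, per class, up to 4 with the highest mean FPKM, every rRNA gene, the 3 highest and 3 lowest ratios in the comparisons with 6-6 MS among tested genes with a mean of at least 5 FPKM, and from each nuclear list examples among the 4 smallest p-values; genes beyond this rule, such as PSBE, were named after their values were seen.

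File starts were raised by 1. Of 123 plastid genes alone in their position 116 had the same start and end in RefSeq TAIR10.1. Its mitochondrial genome (367808 bases) was aligned to the nuclear chromosomes with minimap2 2.31, blocks over 1000 matching bases, and genes to chromosome 2 with blastn 2.17.0. Words of 50 bases were matched exactly on both strands. Root and green tissue markers were added last, as values only. Word matching was checked on simulated sequence. A simulated table checked only the p-value adjustment and the median step used here, and it could not test the authors' own calls. Analyses used Python 3.11.15, pandas 2.3.3 and scipy 1.17.1.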

Additional observations from a re-analysis of the deposited data

How the results depend on the processing

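No paired analysis was possible because the tables hold 1 value per group and carry no replicate numbers, and leaving out single replicates was not run for the same reason. With no spread between samples, a count was taken as kept within 1.5 times and a log2 value within a fold of 1.5 with its sign. Of 144 alternatives 128 kept the result, 9 moved it and 7 turned a sign. Some of those kept could not have come out otherwise. Where the main count was 0, a stricter q-value or a subset of the members had to give 0 again. For 6-6 MS against WT MS the 20 mitochondrial calls were 13 at a q-value below 0.01 and 12 with the authors' statistic read as a normal deviate, the 23 plastid calls were 13 with the statistic, and the mitochondrial median of 1.53 was 0.90 with log2(FPKM + 1), which by construction shrinks low genes. No direction turned in either comparison with 6-6 MS. For WT NaCl against WT MS, the statistic gave 1 mitochondrial and 2 plastid calls against 0. Values near 0 turned sign there. The mitochondrial median of -0.03 was 0.0238 with group values from the other tables. The summed mitochondrial log2 ratio of -0.01 was 0.0198 for protein-coding genes, 0.0380 with the other tables and 0.0192 without RRN18. The plastid median of 0.00 was -0.0323 for protein-coding genes, -0.00783 after subtracting the nuclear median and -0.00735 after scaling to equal nuclear sums. For 6-6 NaCl against WT NaCl the statistic gave 2 mitochondrial calls against 0 and 2 plastid calls (1 higher, 1 lower) against 4, and a q-value below 0.01 left 1 plastid call. The lower plastid call by the statistic was PSBE, which is listed at 0 in 6-6 NaCl, so the statistic was no second check of it. The cause was not tested.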
